A study of Mus musculus with 6 samples.

Results

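The 10 genes described here encode subunits of the COMPASS family of histone H3K4 methyltransferase complexes. They were chosen by name, as shared or specific subunits of the SET1 and MLL complexes (Ash2l, Wdr5, Rbbp5, Dpy30, Setd1a, Setd1b, Cxxc1, Hcfc1, Men1 and Wdr82), and all 10 have a row under these symbols among the 29955 genes of the deposited table. The study compared RNA of mouse embryonic fibroblasts (MEFs, fibroblasts grown from embryos) with and without Rnf40, a subunit of the ligase that attaches a single ubiquitin to histone H2B. RNA-seq was done on 3 samples of each genotype at passage 3.

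The Rnf40-/- MEFs came from a conditional line in which loxP sites flank exons 3 and 4 of Rnf40 and a tamoxifen-inducible Cre (CreERT2) is driven from the Rosa26 locus in all cell types. They had been exposed to 250 nM 4-hydroxytamoxifen (4-OHT) for 5 days, followed by 3 days without it. The other group is labelled Rnf40_WT, for which the paper writes Rnf40+/+. The methods describe MEFs from embryos with CreERT2 and 2 loxP alleles, and 4-OHT as the means to delete Rnf40. For the Rnf40+/+ RNA samples the sources used here do not state whether they carry CreERT2 or were given 4-OHT. Loss of Rnf40, the recombinase and the treatment therefore cannot be told apart. Nothing states that the 3 samples of a genotype came from separate embryos, and the p-values then measure only the spread between these samples, which may be technical. Genes received 17053436, 20781071 and 26344170 reads in Rnf40+/+ and 18741606, 18115481 and 20495627 reads in Rnf40-/- libraries. Values are normalized counts, that is, reads on a gene divided by the size factor of the library, and 3 reads corresponded to a normalized count between 2.40 and 3.58.

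Methylation of lysine 4 on histone H3 marks promoters and enhancers of active genes. Each COMPASS complex joins a catalytic subunit to the same small core of WDR5, RBBP5, ASH2L and DPY30, which the catalytic SET domain needs for full activity, and subunits found in only some of the complexes direct them to chromatin. Ubiquitin on histone H2B is known to stimulate H3K4 methylation by these enzymes, which links them to the ligase that contains RNF40.

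Rnf40 had normalized counts of 1278, 1195 and 1096 in Rnf40+/+ and 439, 519 and 487 in Rnf40-/- libraries. Every Rnf40-/- library was far below every Rnf40+/+ library, as the labels require. By limma, the log2 fold change was -1.30 ± 0.09 (SE), with an adjusted p of 4.25e-07. The value covers reads over the whole gene, so the deleted exons were not examined on their own.

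Of the 10 COMPASS genes, all were abundant enough to be tested, 4 rose in Rnf40-/- MEFs, 5 fell and 1 did not pass the test at an adjusted p of 0.05. Over all 16378 genes tested, 23.3% rose and 24.1% fell, so that a change in either direction was common in this comparison. All 3 Rnf40-/- libraries lay above all 3 Rnf40+/+ libraries for 4 of the 10 genes and below them for 5, against 27.8% and 28.7% of all genes tested. The changes were small. None of the 10 both passed the test and exceeded 0.5 on the log2 scale, whereas 27.6% of all genes tested did so. In other fits Wdr5 reached 0.565 with total reads and Dpy30 -0.53 without Rnf40+/+ replicate 3, both passing the test. The median log2 fold change was -0.22 over the 10 genes and -0.0035 over all genes tested. Fold changes are on the scale of log2(normalized count + 1), which understates the change of genes with few reads. In bulk RNA, fewer cells of a type and less RNA per cell cannot be told apart.

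The balance of rises and falls in the whole table differed with 1 of the scalings tried. With the size factors of the authors, 49.1% of the genes called were higher in Rnf40-/- MEFs (3809 higher, 3955 lower). The share was 49.7% with DESeq2 size factors, 49.8% with TMM and 48.8% with upper-quartile scaling. Scaled by the total reads on genes, 63.8% were higher (5197 and 2955), and the median log2 fold change of all genes moved up by 0.124. With that scaling 4 COMPASS genes rose and 2 fell, and their median was -0.09. The sign of the fold change of each of the 10 genes was the same under every scaling tried, while the calls of Cxxc1, Hcfc1 and Men1 were lost when total reads were used. That scaling gave log2 fold changes of -0.19 for Ash2l, -0.11 for Cxxc1, -0.08 for Hcfc1, 0.30 for Wdr82 and 0.37 for Setd1a.

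**Figure D1:**
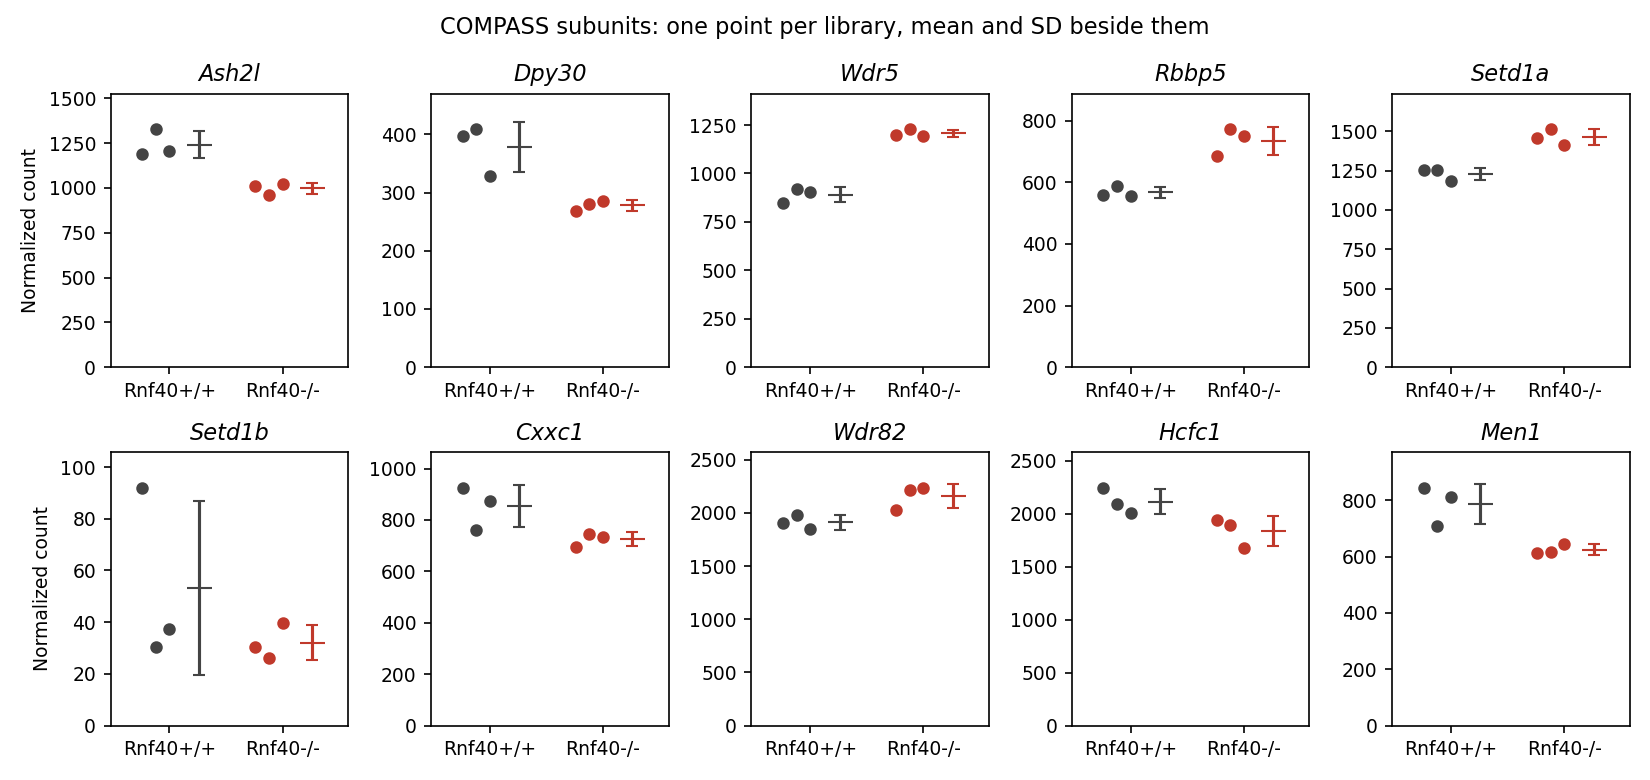
Normalized counts (y axis, from 0) of the 10 COMPASS genes in each library, grouped by genotype on the x axis, with 1 point per library and the mean and SD (n = 3) beside the points. The groups do not overlap for 9 of the 10 genes, with Rnf40-/- above for 4 and below for 5. Of all genes tested, 27.8% and 28.7% were separated in these directions. For Setd1b the range of the Rnf40+/+ libraries, from 30.6 to 92.0, takes in the Rnf40-/- library with 39.7.

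The 4 genes of the shared core did not move together. Wdr5 encodes the WD40-repeat protein that holds the catalytic subunit and the rest of the core together. Its normalized counts were 848, 921 and 905 in Rnf40+/+ and 1200.1, 1228 and 1195 in Rnf40-/- libraries. The Rnf40-/- values were tightly grouped and all lay well above the Rnf40+/+ values. The mean rose from 891 ± 38.3 to 1208 ± 17.8 (SD, n = 3), or 136% of the Rnf40+/+ level, with a log2 fold change of 0.44 ± 0.07 (SE) and an adjusted p of 0.000273 by limma. Wdr5 is located at chr2:27370677-27392055 of mm9, plus strand.

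Rbbp5 encodes the subunit that binds the SET domain together with ASH2L. Rbbp5 had normalized counts of 560.1, 588 and 555 in Rnf40+/+ and 684, 772 and 749 in Rnf40-/- libraries. The lowest Rnf40-/- library was still clearly above the highest Rnf40+/+ library. On the log2 scale Rbbp5 rose by 0.37 ± 0.08 (SE), with an adjusted p of 0.00265 by limma, and the Rnf40-/- mean was 129% of the Rnf40+/+ mean. It is located at chr1:134373944-134402242 of mm9, plus strand.

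Ash2l, whose product pairs with RBBP5 and carries the binding surface for DPY30, went the other way. Its normalized counts were 1191, 1328 and 1207 in Rnf40+/+ and 1008, 961 and 1024 in Rnf40-/- libraries. No library of one genotype reached into the range of the other. The mean fell from 1242 ± 74.8 to 998 ± 32.5 (SD, n = 3), or 80.3% of the Rnf40+/+ level, with a log2 fold change of -0.31 ± 0.07 (SE) and an adjusted p of 0.00364 by limma. Ash2l is located at chr8:26926663-26958166 of mm9, minus strand.

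Dpy30 encodes the smallest core subunit, a dimer that docks on ASH2L. Its normalized counts were 396, 409 and 329 in Rnf40+/+ and 268, 281 and 286 in Rnf40-/- libraries. Replicate 3 was the lowest of the Rnf40+/+ libraries but remained above all Rnf40-/- libraries. Dpy30 had a log2 fold change of -0.43 ± 0.11 (SE), with an adjusted p of 0.0063 by limma, and the Rnf40-/- mean was 73.6% of the Rnf40+/+ mean. Dpy30 is located at chr17:74698814-74723284 of mm9, minus strand.

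Ratios between core genes within a library do not depend on its size factor. These ratios were chosen after the values were seen and were not tested, and because each carries the lengths of both transcripts they are compared between libraries only. The ratio of Wdr5 to Ash2l was 0.712, 0.694 and 0.749 in Rnf40+/+ and 1.19, 1.28 and 1.17 in Rnf40-/- libraries. The ratio of Wdr5 to Dpy30 was 2.14, 2.25 and 2.75 in Rnf40+/+ and 4.48, 4.38 and 4.18 in Rnf40-/-. Both ratios were higher in every Rnf40-/- library than in any Rnf40+/+ library. This had to follow, since Wdr5 was higher and Ash2l and Dpy30 lower in every Rnf40-/- library, and it adds no separate evidence. Within the pairs that moved in the same direction the ratios stayed closer, at 1.51, 1.56 and 1.63 against 1.75, 1.59 and 1.60 for Wdr5 to Rbbp5, where the groups overlapped. The ratio of Ash2l to Dpy30 was 3.00, 3.25 and 3.67 against 3.76, 3.42 and 3.58, and these ranges overlapped as well.

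Setd1a and Setd1b encode the alternative catalytic subunits of the SET1 complexes. Setd1a had normalized counts of 1252, 1253 and 1187 in Rnf40+/+ and 1460.2, 1513 and 1413 in Rnf40-/- libraries. All Rnf40-/- libraries were above all Rnf40+/+ libraries, by a gap wider than the range within either genotype. On the log2 scale Setd1a rose by 0.25 ± 0.07 (SE), with an adjusted p of 0.00866 by limma, and the Rnf40-/- mean was 119% of the Rnf40+/+ mean. Setd1a is located at chr7:134920184-134943636 of mm9, plus strand, 173 kb beyond the end of Rnf40. The GENCODE annotation gives it 3523 exonic bases in common with Hsd3b7 on the same strand, so the reads of these 2 genes may be split uncertainly. The overlap was not examined in the UCSC transcripts to which the authors mapped. Hsd3b7, named for this overlap after the values were seen, had normalized counts of 358, 355 and 354 in Rnf40+/+ and 315, 288 and 304 in Rnf40-/- libraries. These were lower where those of Setd1a were higher, and the adjusted p of Hsd3b7 was 0.0604 by limma.

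Setd1b was the least certain of the 10 genes. Its row held 77, 30 and 47 reads in Rnf40+/+ and 30, 25 and 42 reads in Rnf40-/- libraries, or normalized counts of 92.0, 30.6 and 37.5 against 30.6, 26.1 and 39.7. Replicate 1 of Rnf40+/+ stood apart from the other libraries, which overlapped between the genotypes. The log2 fold change of -0.57 ± 0.37 (SE) had a 95% confidence interval from -1.38 to 0.24 and an adjusted p of 0.232 by limma. Without Rnf40+/+ replicate 1 the log2 fold change was -0.10 (adjusted p 0.821), and without Rnf40+/+ replicate 2 it was -0.87 (adjusted p 0.099), the highest and the lowest adjusted p over its 18 alternatives. A missed threshold does not show that there is no difference. Setd1b is located at chr5:123592202-123617444 of mm9, plus strand.

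The reads of Setd1b are divided in the table. A second row, mKIAA1076, is listed by RefSeq as an older name of Setd1b, and held normalized counts of 223, 197 and 243 in Rnf40+/+ and 226, 201 and 198 in Rnf40-/- libraries. Most of the Setd1b signal thus lay in that row, and there replicate 1 of Rnf40+/+ did not stand apart. In an alternative chosen after seeing the data, the sum of both rows was 274 ± 44.2 in Rnf40+/+ and 241 ± 14.9 in Rnf40-/- libraries (SD, n = 3). Its log2 fold change was -0.18 ± 0.13 (SE), with an adjusted p of 0.299 by limma, and the groups overlapped.

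The balance of Setd1a and Setd1b within a library was tested as a single value. With the Setd1b row alone, the log2 ratio of Setd1a to Setd1b was 3.75, 5.31 and 4.95 in Rnf40+/+ and 5.53, 5.80 and 5.12 in Rnf40-/- libraries. The mean difference was 0.82, with a p of 0.2 by a two-sided exact permutation test, for which 3 libraries against 3 cannot give less than 0.1. The ranges overlapped, and without Rnf40+/+ replicate 1 the difference was 0.36. With both rows summed the log2 ratio was 1.99, 2.46 and 2.08 against 2.50, 2.73 and 2.56. Here the Rnf40-/- libraries were all higher, the difference was 0.42, and the exact permutation p was 0.1, the smallest this design allows. Without 1 library the difference lay between 0.331 and 0.566, with a p of 0.1 when the library left out was Rnf40+/+ and of 0.2 without Rnf40-/- replicate 1 (0.473), 2 (0.36) or 3 (0.442). The summed ratio was chosen after the values were seen.

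Cxxc1 and Wdr82 encode subunits found in SET1 complexes but not in MLL complexes. CXXC1, also called CFP1, binds unmethylated CpG and brings the complex to CpG islands. Cxxc1 had normalized counts of 926, 763 and 874 in Rnf40+/+ and 694, 747 and 733 in Rnf40-/- libraries. Replicate 2 of Rnf40+/+ was close to the Rnf40-/- values, though still above them. The log2 fold change was -0.23 ± 0.09 (SE), with an adjusted p of 0.0438 by limma. The call was lost in 9 of 17 alternatives, over which the adjusted p ran from 0.0125 to 0.361. It did not pass without Rnf40+/+ replicate 1 (-0.17, adjusted p 0.147) or replicate 3 (-0.21, 0.0764), nor without Rnf40-/- replicate 1 (-0.20, 0.153), replicate 2 (-0.255, 0.073) or replicate 3 (-0.24, 0.0866). Cxxc1 is located at chr18:74375785-74381145 of mm9, plus strand.

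WDR82 recruits the SET1 complexes to RNA polymerase II at the start of transcription and also serves in complexes that end transcription. Wdr82 had normalized counts of 1905, 1979 and 1845 in Rnf40+/+ and 2030.2, 2218 and 2236 in Rnf40-/- libraries. Replicate 1 of Rnf40-/- was only slightly above the Rnf40+/+ range. The log2 fold change was 0.18 ± 0.07 (SE), with an adjusted p of 0.0449 by limma, the smallest change among the COMPASS genes called. The call was lost in 5 of 17 alternatives (adjusted p from 0.00245 to 0.141). Among these were the fits without Rnf40+/+ replicate 1 (0.18, adjusted p 0.0814) or replicate 3 (0.15, 0.0884) and without Rnf40-/- replicate 2 (0.16, 0.141) or replicate 3 (0.15, 0.14). Wdr82 is located at chr9:106073260-106094747 of mm9, plus strand. The ratio of Cxxc1 to Wdr82, chosen after the values were seen and not tested, was 0.486, 0.385 and 0.474 in Rnf40+/+ and 0.342, 0.337 and 0.328 in Rnf40-/- libraries, without overlap. That separation had to follow, since Cxxc1 was lower and Wdr82 higher in every Rnf40-/- library.

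Hcfc1 encodes host cell factor, a scaffold of the SET1 complexes and of the MLL1 (KMT2A) and MLL2 (KMT2B) complexes. Hcfc1 had normalized counts of 2248, 2090.5 and 2009 in Rnf40+/+ and 1946, 1892 and 1675 in Rnf40-/- libraries. The lowest Rnf40+/+ and the highest Rnf40-/- library were close, and replicate 3 of Rnf40-/- was well below the rest. The log2 fold change was -0.20 ± 0.08 (SE), with an adjusted p of 0.0424 by limma. The call was lost in 9 of 17 alternatives (adjusted p from 0.0171 to 0.446). It did not pass without Rnf40+/+ replicate 1 (-0.16, adjusted p 0.131) or replicate 2 (-0.21, 0.0752), nor without Rnf40-/- replicate 1 (-0.25, 0.0506), replicate 2 (-0.23, 0.0699) or replicate 3 (-0.14, 0.178). Hcfc1 is located at chrX:71188131-71211696 of mm9, minus strand.

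Men1 encodes menin, which belongs to the MLL1 (KMT2A) and MLL2 (KMT2B) complexes and binds the N-terminal part of the catalytic subunit. Men1 reached normalized counts of 844, 708 and 809.7 in Rnf40+/+ and 614, 615 and 646 in Rnf40-/- libraries. The Rnf40-/- libraries were nearly level and all lay below the lowest Rnf40+/+ library, replicate 2. Men1 had a log2 fold change of -0.33 ± 0.09 (SE), with an adjusted p of 0.00749 by limma, and the Rnf40-/- mean was 79.4% of the Rnf40+/+ mean. Scaled by total reads, Men1 no longer passed (-0.20, adjusted p 0.0799, the highest over its 17 alternatives, the lowest being 0.00355). Men1 is located at chr19:6334979-6340891 of mm9, plus strand.

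Levels of different genes are compared as normalized counts per kb of the longest annotated coding transcript. In Rnf40+/+ MEFs the mean level per kb was 473 for Dpy30, 400.0 for Ash2l and 390.0 for Wdr82. The ranges of these neighbours overlapped, so their order is not resolved. Cxxc1 (326) and Wdr5 (308) formed the next pair, with overlapping ranges, followed by Men1 (265) and Hcfc1 (256), whose ranges overlapped too. Setd1a had a mean level per kb of 190.0 and Rbbp5 of 156, and each of these was separate from its neighbours. Setd1b was last with a mean level per kb of 6.96, or 35.8 when both rows were summed.

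In Rnf40-/- MEFs the order per kb differed at the top. Wdr82 had a mean level per kb of 442 and Wdr5 of 418, with overlapping ranges, and Dpy30 (348), Ash2l (321) and Cxxc1 (277) followed, each separate from the next. Wdr5 thus lay below Dpy30 and Ash2l in Rnf40+/+ MEFs and above both in Rnf40-/- MEFs. Setd1a (225), Hcfc1 (222), Men1 (210.0) and Rbbp5 (202) came close together, and the ranges of each neighbouring pair overlapped. Setd1b was again last, with a mean level per kb of 4.19, or 31.4 with both rows.

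The 10 genes lie on 10 different chromosomes. A search of protein-coding transcripts at 90% identity over at least 50 bases listed no near copy of any of the 10 in another gene. Pseudogenes and noncoding transcripts were not searched, so near copies among them could not be found. Hsd3b7 was not listed for Setd1a either, although the annotation gives them 3523 exonic bases in common. The search therefore does not cover reads divided through such an overlap. Transcript length moved with the result over all genes. Among 13828 tested genes with an annotated length, the Spearman correlation of length with log2 fold change was 0.16, given as a description across genes, which are not independent replicates. In the shortest length quartile (up to 1910 bases) 16.6% rose and 31.2% fell, and in the longest length quartile (from 4416 bases) 34.9% rose and 20.2% fell. Dpy30, with 799 bases, belongs to the shortest length quartile and fell. Setd1a, Setd1b, Hcfc1 and Wdr82 belong to the longest, where Setd1a and Wdr82 rose, Hcfc1 fell and Setd1b did not pass. Wdr5 at 2890 bases rose while Men1 at 2975 and Cxxc1 at 2618 in the same quartile fell, and Rbbp5 at 3632 rose while Ash2l at 3104 fell. The part of length in these changes was not tested. In the study's gene lists by width of the H3K4me3 peak, of which the copy read here may hold only some of the genes, Setd1b is among the broad and Ash2l and Men1 among the sharp ones.

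Promoters are shown for the 5 genes with a single listed start, which are the 4 that rose and Hcfc1, which fell, so that their base composition can be compared. Sequences come from RefSeq on GRCm38.p6, where 7 of the 10 genes had an entry, and each runs 5′ to 3′ over the 250 bases before the start. Searched on both strands were CCAAT (bound by NF-Y), CCGGAAG (ETS factors), AAGATGGCG (YY1), TTTCCCGC (E2F factors), TATAAA (the TATA box), TGACGTCA (CREB), GGGCGGGG (SP factors) and the longer NRF1 motif, a set chosen after the values were seen. Capitals mark a match, and none of those shown overlap. Wdr5 is at chr2:27514897-27515146 on the plus strand, Rbbp5 at chr1:132477117-132477366 on the plus strand, Setd1a at chr7:127777139-127777388 on the plus strand, Wdr82 at chr9:106170679-106170928 on the plus strand and Hcfc1 at chrX:73966358-73966607 on the minus strand.
Wdr5: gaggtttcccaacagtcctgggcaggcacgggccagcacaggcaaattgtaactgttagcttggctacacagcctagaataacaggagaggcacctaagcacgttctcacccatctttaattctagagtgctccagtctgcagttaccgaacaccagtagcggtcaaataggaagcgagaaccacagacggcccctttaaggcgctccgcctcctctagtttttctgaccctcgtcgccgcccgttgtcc
Rbbp5: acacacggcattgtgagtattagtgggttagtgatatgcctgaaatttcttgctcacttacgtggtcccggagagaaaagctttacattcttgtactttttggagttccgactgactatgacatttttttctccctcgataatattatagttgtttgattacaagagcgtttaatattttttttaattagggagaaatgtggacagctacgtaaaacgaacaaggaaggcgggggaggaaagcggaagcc
Setd1a: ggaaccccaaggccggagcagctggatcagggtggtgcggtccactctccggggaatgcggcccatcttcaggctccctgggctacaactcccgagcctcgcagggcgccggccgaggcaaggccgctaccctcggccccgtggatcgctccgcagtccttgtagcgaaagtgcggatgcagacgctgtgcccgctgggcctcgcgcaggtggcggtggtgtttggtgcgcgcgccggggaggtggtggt
Wdr82: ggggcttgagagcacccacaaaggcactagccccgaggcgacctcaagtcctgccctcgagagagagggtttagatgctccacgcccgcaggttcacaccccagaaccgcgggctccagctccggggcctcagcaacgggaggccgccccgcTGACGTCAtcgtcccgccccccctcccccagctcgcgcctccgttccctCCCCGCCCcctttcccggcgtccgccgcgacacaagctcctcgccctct
Hcfc1: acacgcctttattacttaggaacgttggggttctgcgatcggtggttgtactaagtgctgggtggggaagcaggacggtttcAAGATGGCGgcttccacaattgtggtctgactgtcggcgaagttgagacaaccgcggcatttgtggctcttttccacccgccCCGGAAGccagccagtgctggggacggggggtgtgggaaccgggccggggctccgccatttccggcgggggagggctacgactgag

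The share of G and C in these windows was 54.4% for Wdr5, 40.0% for Rbbp5, 70.4% for Setd1a, 70.8% for Wdr82 and 61.2% for Hcfc1, beside a median of 52.4% over 32851 promoter windows of the same length. The number of CpG was 12, 10, 25, 24 and 19 in the same order, beside a median of 6. All 5 windows thus held more CpG than the median, while the share of G and C in the Rbbp5 window was below the median. The Wdr82 window held TGACGTCA, found in 1.55% of all windows, and GGGCGGGG, found in 16.1%. In the Hcfc1 window were AAGATGGCG (0.606% of all windows) and CCGGAAG (6.91%). Of the others, CCAAT (33.8% of all windows), the NRF1 motif (0.782%), TTTCCCGC (0.895%) and TATAAA (12.4%) were in none of the 5 windows shown. CCAAT was in the windows of Dpy30 and Men1, which fell and are not shown because RefSeq lists several starts, and the Dpy30 window held 1 CpG and 40.0% G and C. A match is a description of the letters only, and Wdr5, Rbbp5 and Setd1a had none in this window.

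The other genes of the pathway comprised 33 genes, listed by known role. Of the 32 that could be tested, 10 rose, 6 fell and 16 did not pass, beside 23.3% and 24.1% of all genes tested that rose and fell, and the median log2 fold change was 0.07. All 3 Rnf40-/- libraries lay above all Rnf40+/+ libraries for 12 of them and below for 8, beside 27.8% and 28.7% of all genes tested. Scaled by total reads, 13 rose and 3 fell, beside 5197 that rose and 2955 that fell of all 16378 genes tested with that scaling.

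The 4 MLL genes encode the catalytic subunits that share the core with SETD1A and SETD1B. Kmt2a (Mll1 in the table) had normalized counts of 1612, 1488 and 1539 in Rnf40+/+ and 2668, 2765 and 2448 in Rnf40-/- libraries. The genotypes did not overlap and lay widely apart, with a log2 fold change of 0.76 ± 0.07 (SE) and an adjusted p of 3.68e-06 by limma. This change was larger in size than that of any COMPASS gene called in the same fit, and the difference was not tested. Of the further rows listed by RefSeq under older names of Kmt2a, All-1 had a log2 fold change of 0.74 (adjusted p 0.00319 by limma) and mKIAA4050 one of 0.62 (adjusted p 0.07). Kmt2c (Mll3) had 361, 339.6 and 370.5 against 620.0, 584 and 482, also without overlap, and a log2 fold change of 0.65 ± 0.11 (SE; adjusted p 0.000371 by limma). Both transcripts are long, 16470 bases for Kmt2a and 16901 for Kmt2c, and lie in the longest length quartile, where rises were more frequent. The other MLL genes, Kmt2b with 8471 bases and Kmt2d with 19805, lie in the same quartile and did not pass the test. The part of length was not tested. Kmt2b (Wbp7), with 1044, 909.6 and 946 against 950.3, 1043 and 882, had overlapping groups, and its log2 fold change was -0.01 ± 0.09 (SE; adjusted p 0.91 by limma), turning to 0.11 with total reads, 0.04 without Rnf40+/+ replicate 1 and 0.04 without Rnf40-/- replicate 3. Kmt2d (Mll2 in the table) had 2184, 1667 and 1897 against 2508, 2477 and 1965, which overlapped through replicate 1 of Rnf40+/+ and replicate 3 of Rnf40-/-. Its log2 fold change of 0.27 ± 0.11 (SE) had an adjusted p of 0.0591 by limma, but 0.011 without the first (0.37) and 0.0139 without the second of these libraries (0.39). It was 0.18 without Rnf40+/+ replicate 2 and 0.21 and 0.22 without Rnf40-/- replicates 1 and 2, where it did not pass. It passed in 5 of 17 alternatives, the others being the replicate block (adjusted p 0.0126), DESeq2 (0.0303) and total reads (0.0153), within a range of 0.011 to 0.238. Of these 4 genes, 2 rose and none fell in the limma fit used throughout, and their median log2 fold change was 0.46. Of all genes tested, 23.3% rose and 24.1% fell in that fit.

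Among 9 partners of the MLL and SET1 complexes, 3 rose and 2 fell (median -0.17), beside 23.3% and 24.1% of all genes tested. Psip1 encodes LEDGF, which with menin tethers MLL1 to chromatin, and had normalized counts of 1064, 912 and 835 in Rnf40+/+ and 391.6, 407 and 420.2 in Rnf40-/- libraries. The Rnf40-/- values were less than those of any Rnf40+/+ library by a wide margin, and the log2 fold change was -1.20 ± 0.10 (SE; adjusted p 1.55e-06 by limma). Bod1l, whose product is associated with the SET1B complex and with replication forks, rose from 1069, 1226 and 1107 to 2068, 2083 and 1858, without overlap. Its log2 fold change was 0.82 ± 0.08 (SE; adjusted p 4.71e-06 by limma). Pagr1a (2900092E17Rik), a subunit of the MLL3 (KMT2C) and MLL4 (KMT2D) complexes, had 318, 289.6 and 489.5 against 206, 229.6 and 229. Although the Rnf40+/+ libraries were widely spread, through replicate 3, the groups did not overlap. The log2 fold change was -0.68 ± 0.17 (SE; adjusted p 0.00571 by limma), and without Rnf40+/+ replicate 3 it was -0.45.

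Of 6 genes of other complexes that contain WDR82, 2 rose and 1 fell (median 0.05), beside 23.3% and 24.1% of all genes tested. Ppp1cc, a catalytic subunit of protein phosphatase 1, had normalized counts of 4778, 4619.5 and 4548 in Rnf40+/+ and 5563, 5512 and 5658 in Rnf40-/- libraries. These groups were well separated, and the log2 fold change was 0.26 ± 0.06 (SE; adjusted p 0.00283 by limma). Zc3h4, whose product restrains noncoding transcription together with WDR82, had 1040.2, 1045 and 1059 against 924, 925 and 938.5, with little spread within either genotype. Its log2 fold change was -0.17 ± 0.07 (SE; adjusted p 0.0487 by limma), and the call was lost in 11 of 17 alternatives, with adjusted p from 0.0412 to 0.576, the last with total reads (-0.05). These included each fit without 1 library, at 0.0798, 0.0743 and 0.0782 without Rnf40+/+ replicates 1, 2 and 3 and 0.142, 0.113 and 0.0879 without Rnf40-/- replicates 1, 2 and 3. In the fits without 1 library the log2 fold change of Zc3h4 stayed between -0.181 and -0.166.

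Of 8 genes of other complexes that contain WDR5 or HCFC1, 2 rose and 3 fell (median -0.07), beside 23.3% and 24.1% of all genes tested. Phf20, a subunit of the NSL acetyltransferase complex, had normalized counts of 994, 1028 and 959 in Rnf40+/+ and 624, 613 and 535 in Rnf40-/- libraries. Its log2 fold change was -0.75 ± 0.08 (SE; adjusted p 1.7e-05 by limma). Kansl1 (1700081L11Rik), the scaffold of the same complex, went up, with 1729, 1779.5 and 1583 against 2336, 2167 and 2106, and a log2 fold change of 0.38 ± 0.07 (SE; adjusted p 0.000998 by limma). Neither Phf20 nor Kansl1 had overlapping groups. A further row listed by RefSeq under an older name of Kansl1, mKIAA1267, had a log2 fold change of 0.60 (adjusted p 0.0541 by limma). The other genes called in this list, named after the values were seen, were Kansl2 (-0.29) and Mcrs1 (-0.29), which fell, and Bap1 (0.27), which rose.

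Among 6 further genes listed for reported H3K4 methyltransferase activity, 1 of the 5 that could be tested rose and none fell (median 0.14). The shares of all genes tested were 23.3% and 24.1%. Ash1l, in spite of its name unrelated to Ash2l and now known chiefly as an H3K36 methyltransferase, was the gene that rose, and it had normalized counts of 1525, 1489.9 and 1384 in Rnf40+/+ and 2056, 2146 and 1790.2 in Rnf40-/- libraries. There was no overlap, and the log2 fold change was 0.44 ± 0.08 (SE; adjusted p 0.000707 by limma). Smyd2 had 1274, 1246 and 1295 against 1132, 1158 and 1138, also without overlap, but its log2 fold change of -0.15 ± 0.06 (SE) did not pass (adjusted p 0.0682 by limma), and with total reads it was -0.03 (adjusted p 0.744).

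**Figure D2:**
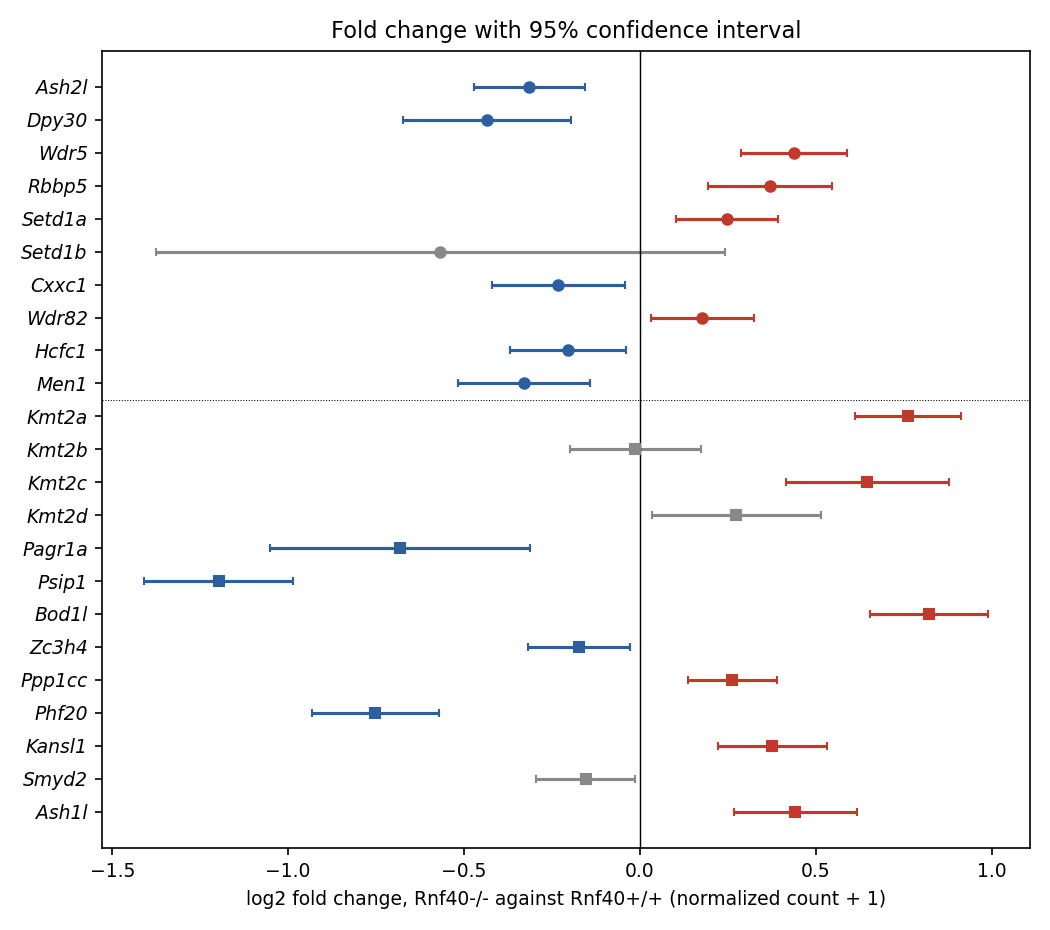
Log2 fold change (x axis) of the 10 COMPASS genes (circles, above the dotted line) and of the named pathway genes (squares) in Rnf40-/- against Rnf40+/+ MEFs, with 95% confidence intervals of limma (n = 3 libraries per genotype). Red marks genes that rose, blue genes that fell and grey genes that did not pass the test, and the interval of Setd1b, from -1.38 to 0.24, is the widest.

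Markers of cell types moved between the genotypes beside the COMPASS genes. The 10 fibroblast markers summed to 690335, 726057 and 758108 normalized counts in Rnf40+/+ and 417722, 414472 and 417354 in Rnf40-/- libraries. Of these 10 genes 9 fell and none rose, and the most abundant, Fn1, had 315149, 342076 and 327676 against 212759, 215106 and 202424. Over all genes tested 23.3% rose and 24.1% fell, shares that also stand beside the counts of the other marker lists. The cells of both genotypes thus expressed fibroblast markers at high levels, and less so in every Rnf40-/- library. The 7 macrophage markers summed to 5387, 5800.4 and 9132 in Rnf40+/+ and 3782, 3518 and 3854 in Rnf40-/- libraries. Of these, 2 rose and 1 fell. The 1 that fell was the most abundant, Lyz2, which had 3945, 4557 and 7440.3 against 2318, 2092 and 2383 and made up most of the sum. Ptprc, with 46.6, 65.3 and 75.9 against 155, 171 and 154.8, and Cd14, with 103, 120.3 and 117 against 204, 156 and 182, rose. None of the 7 was at 0. The 4 endothelial markers summed to 143, 46.9 and 53.5 in Rnf40+/+ and 178, 265 and 173 in Rnf40-/- libraries, 3 rose and none fell, and the most abundant over all libraries, Kdr, had 21.5, 26.5 and 34.3 against 74.4, 117 and 62.3. Tek, the highest of them in Rnf40+/+ by its mean, had 114.6, 11.2 and 16.0 against 43.8, 73.1 and 68.0, so that it made up most of the sum in replicate 1 of Rnf40+/+. Their part in the changes of the COMPASS genes was not tested.

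The other marker lists were carried by few genes. The 4 neuronal markers summed to 2848, 1494 and 1576 in Rnf40+/+ and 1494, 1507 and 1679 in Rnf40-/- libraries, nearly all of it from Tubb3 (2670.3, 1275 and 1353 against 1279.7, 1277 and 1477), and none of the 2 tested was called. The 4 skeletal muscle markers summed to 433, 129.5 and 117 against 42.8, 27.1 and 43.4, of which Des gave 431, 126 and 114 against 35.7, 27.1 and 42.5 and fell, while Myod1 was at 0 in all libraries. The 4 epithelial markers summed to 83.6, 23.5 and 42.3 against 42.8, 24.0 and 25.5, with Krt18 the most abundant over all libraries at 22.7, 18.4 and 27.9 against 24.5, 12.5 and 12.3, and the 1 tested was not called. Krt8 gave 58.5 of the sum in replicate 1 of Rnf40+/+. Of the erythroid markers, the 3 in the table summed to at most 8.50 in a library, Alas2 was the most abundant, none could be tested, and Hbb-b1 was at 0 throughout. Replicate 1 of Rnf40+/+ was the highest library in the sums of the neuronal, muscle and epithelial lists, as it was for Setd1b. The Setd1b value without this library is given above, and the reason for its difference was not tested.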

How the data were processed

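Deposited values for 6 RNA-seq libraries were analysed (0 columns were left out). Per the methods, the authors mapped reads to the mouse transcriptome of UCSC mm9 and normalized with DESeq. The deposited signal is thus reads per gene divided by a size factor. The submitters' processing notes name Bowtie2 (version 2.1.0) and DESeq (version 1.14.0). The kit was directional, but use of strand in counting is not stated. Dividing each library by its smallest positive value gave whole reads for 100% of values (tolerance 0.01 reads). Genes passing filterByExpr of edgeR (version 4.0.16) were tested with limma (version 3.58.1) on log2(normalized count + 1), with a trend and Benjamini-Hochberg adjustment over 16378 genes. Tests were tried on simulated data, and no result of those trials is used here.

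The members and lists were chosen with earlier results of these data known. Named were Rnf40, the 10 members, the MLL genes, from other lists genes called with a log2 fold change of at least 0.5 or else the smallest adjusted p in each direction, and the most abundant marker. Older symbols were matched through RefSeq (GRCm38.p6), and 1 listed gene had no row. Alternatives were other filters, pseudocounts, scalings, edgeR, DESeq2 (version 1.42.0), a replicate block and each library left out. R (version 4.3.3), Python (version 3.11.15) and BLAST (version 2.17.0) were used. Lengths and positions are from GENCODE on mm9.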

Additional observations from a re-analysis of the deposited data

How the results depend on the processing

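The fold changes of the named genes and the counts of calls were refitted in 17 other ways, and the ratio of Setd1a to Setd1b in 8. The ratio with both Setd1b rows was refitted without each library only. Marker sums, levels per kb, length and the ratios of other genes were not refitted. The direction of each COMPASS gene was the same in all 17 fits, and Wdr5, Rbbp5, Ash2l, Dpy30 and Setd1a passed in each. The number of COMPASS genes that fell was 5, but 3 with no gene filter, 2 with total reads on genes, 3 with the Wald test of DESeq2, 4 with TMM, 4 with the quasi-likelihood test of edgeR and from 3 to 4 without 1 library. The number that rose was 4, but 3 with no gene filter and in 4 of the 6 fits without 1 library. Of all 16378 genes tested, 3955 fell, but 2955 with total reads, 3914 with TMM and from 3335 to 3886 without 1 library. With no gene filter, 3844 of 22545 genes fell and 4001 rose. Without 1 library, from 3030 to 3761 of all genes rose, beside 3809 with all 6. The cause of these moves was not tested. The further pathway genes that fell numbered 6, but 3 with total reads, which moved the median of all genes by 0.124, and 5 in 9 other fits. Those that rose numbered 10, and from 7 to 13 in the other fits. Kmt2b turned from -0.01 to 0.112 with total reads, to 0.0432 when Rnf40+/+ replicate 1 was left out and to 0.0448 when it was Rnf40-/- replicate 3. Over the fits without 1 library it lay between -0.0759 and 0.0448. The cause was not tested. On the recovered reads the quasi-likelihood test of edgeR called 3857 genes higher and 3940 lower, and DESeq2 3563 and 3726. Same-numbered samples did not deviate together (correlations 0.012, 0.017 and 0.021), and with a replicate block 4021 genes were higher and 4196 lower. Setd1b is limited by its 25 to 77 reads per library, by the value of Rnf40+/+ replicate 1 and by its reads in a second row. Adding the second row of Setd1b was chosen after seeing the data.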
